A study of Dugesia japonica with 4 samples.

Results

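The transcript make-up of control heads was described for the planarian Dugesia japonica, a freshwater flatworm that regrows a lost head. The members were the assembled transcript features with a locus span of at least 400 nt and a protein name that was not blank, uncharacterized or hypothetical. They numbered 2482 of the 15857 features in the deposited tables. Of these, 2476 had a value in both control libraries and were ranked, while 5 were missing from the replicate 1 table and 1 from the replicate 2 table. The ranked members carried 2050 different protein names.

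Both libraries were made from amputated heads of wild type worms labelled as control, with 25 worms pooled in each, and their RNA was selected by poly(A) tail. The labels do not say whether the control heads were intact or regrown, nor whether the worms were fed. The design text of the series also speaks of starved worms and of 3 replicates per treatment. The series itself holds 2 control libraries, and both were used. Nothing in the labels says more than that the libraries are biological replicates, and 2 libraries of 1 group allowed no test, so the values are given library by library. The series also holds 2 libraries of heads regrown in 1 mM BaCl2 over 35 days, which were not used.

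A planarian head holds a brain of paired cephalic ganglia, eyes, a body wall of smooth-type muscle under an epidermis whose ventral cells are ciliated, branches of the gut and, behind the eyes, stem cells called neoblasts, which are the dividing cells of the adult worm. Nerve cells use synaptic vesicle proteins and transmitter enzymes, muscle uses myosin, tropomyosin and troponin, and motile cilia use tektins, radial spokes and dynein arms. Gut cells digest food inside the cell with cathepsins and other lysosomal enzymes, and neoblasts make histones, replication proteins and germ-line type RNA-binding proteins such as piwi and vasa. In bulk RNA of whole heads, fewer cells of a type and less RNA per cell cannot be told apart.

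Levels are in FPKM, that is fragments scaled by feature length and by library size, so they can be compared between genes of different length. Both libraries were put on 1 common scale through the authors' pooled control column. Library 1 held 5901088 fragments recovered from the FPKM values and library 2 held 8304647, of which 34.8% and 36.6% fell on the members. A single fragment on a 400 nt feature stood for 0.225 FPKM in library 1 and 0.146 FPKM in library 2, and 3 fragments, the limit that a count of 0 allows, for 0.675 and 0.439 FPKM. The median member held 194 fragments in library 1 and 299.5 in library 2. These limits cover counting error only.

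The named transcriptome of control heads was led by a few abundant transcripts. The median member stood at 12.1 FPKM in both libraries, and the middle of the distribution, from the lower to the upper quartile, ran from 4.95 to 33.1 FPKM in library 1 and from 5.11 to 33.4 FPKM in library 2. The highest member stood at 4706 FPKM. In both libraries at once, 2410 members reached 1 FPKM, 1325 reached 10 FPKM, 226 reached 100 FPKM and 19 reached 1000 FPKM. The 10 highest members of a library made up 16.9% of the summed member FPKM in each, and the 50 highest 41.5% and 41.3%. The highest 76 members of library 1 and the highest 80 of library 2 passed 50% of the sum. At the other end, 4 members were at 0 in library 1 and 0 members in library 2.

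The libraries ordered the members much alike. Across the 2476 features, log2(FPKM + 1) had a Pearson r of 0.985 and the ranks a Spearman rho of 0.980. The features share their libraries and depth and are not independent replicates. Of 2444 members with a mean of at least 1 FPKM, 40 stood more than 2-fold apart between the libraries on the log2(FPKM + 1) scale, or 1.64%. The same share over all features of any length or name was 22.7%. The count was 92 with a pseudocount of 0.1 in place of 1, and 4 with a pseudocount of 5. Among the 40, 30 held under 100 fragments over both libraries and 36 spanned under 800 nt. Only 2 of the 840 members with at least 1000 fragments differed that much, and both were higher in library 2. They were a small heat shock protein, at 518 FPKM in library 1 and 1263 FPKM in library 2, and EGR-like protein 1, named for early growth response transcription factors, at 35.2 and 78.2 FPKM.

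**Figure D1:**
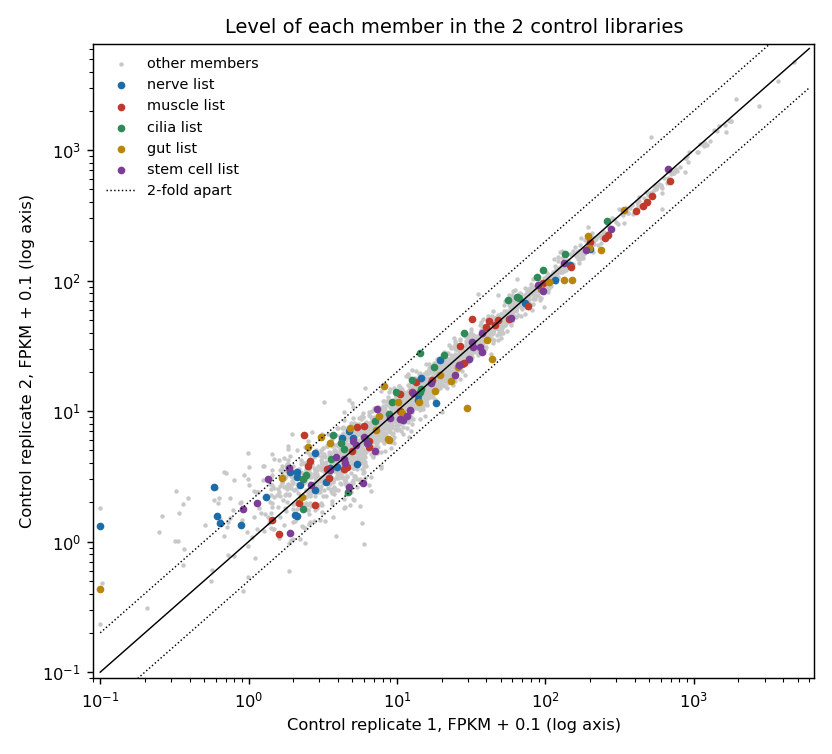
Level of each of the 2476 members in control replicate 1 (horizontal) and control replicate 2 (vertical), in FPKM + 0.1 on log axes, with the 5 tissue lists in colour and dotted lines at 2-fold. The points lie along the diagonal at high levels and fan out at low levels, and the small heat shock protein at 518 and 1263 FPKM is the highest grey point outside the dotted lines.

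Of the 50 highest members of each library, 48 were shared, which is 1.94% of all members. Among these 48, 19 were ribosomal proteins, 3 chaperones and 3 iron and redox proteins. Another 2 were translation factors, 2 tubulins, 2 intermediate filament features, 1 an actin and 1 a ubiquitin-conjugating enzyme. The tissue lists gave 2 of the 48, tropomyosin from muscle and histone H2B from the stem cell list, and the other 13 were on no list. The plot of the 30 leading members shows both libraries side by side.

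**Figure D2:**
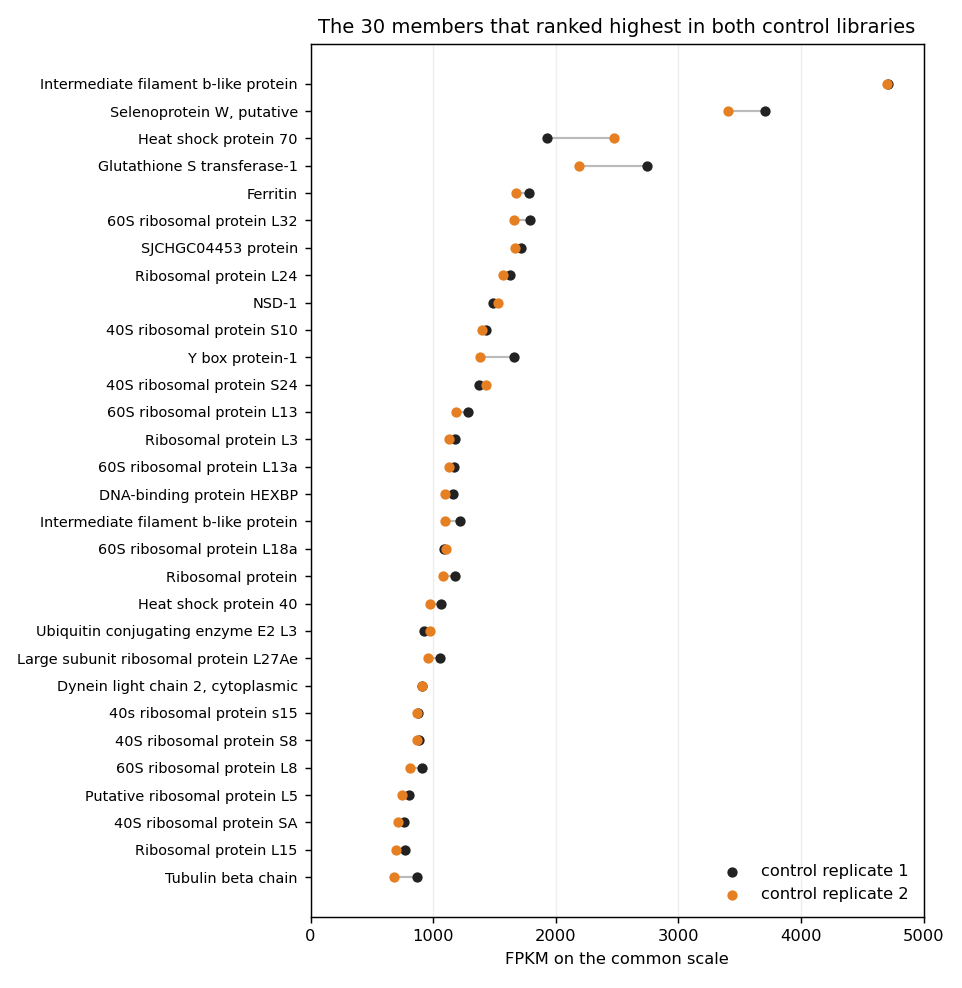
The 30 members with the best rank in their lower-ranking library, with the FPKM of control replicate 1 in black and of control replicate 2 in orange, joined by a line. Intermediate filament b-like protein leads at 4706 and 4702 FPKM, and the last of the 30, Tubulin beta chain, stands at 870 and 684 FPKM.

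The leading member was Intermediate filament b-like protein (TCONS_00001353), a cytoskeletal filament subunit named after a protein of the flatworm Macrostomum lignano. It was first in both libraries, at 4706 FPKM in library 1 and 4702 FPKM in library 2. A second feature of this name (TCONS_00001354) lay on the same contig with the same start and end and stood at 1219 and 1096 FPKM. The split of reads between these overlapping features rests on the authors' assignment, and their sum was 5925 and 5797 FPKM.

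Proteins of redox chemistry, iron storage and stress filled the next places. Selenoprotein W, a small selenium-containing redox protein, was second in both libraries at 3705 and 3405 FPKM. Glutathione S transferase-1, which conjugates glutathione to reactive compounds, stood at 2747 FPKM in library 1 and 2192 FPKM in library 2. Heat shock protein 70, a chaperone that binds unfolded proteins, went the other way, at 1926 and 2477 FPKM. These last proteins therefore exchanged ranks 3 and 4 between the libraries. Ferritin, the iron storage protein, stood at 1779 and 1675 FPKM in its highest feature, and the other 4 features of that name ranged from 6.54 to 181 FPKM in library 1 and from 3.04 to 159 FPKM in library 2. Cu-Zn superoxide dismutase, which removes superoxide, stood at 734 and 663 FPKM.

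The iron and redox list as a whole was high but uneven. Its 27 features had a median percentile of 75.7 in library 1 and 74.8 in library 2, where 100 is the highest member and 50 the middle. Of them, 6 were in the top 10% of both libraries, against 9.65% of all members, and 7 lay below the middle in both. The list made up 4.73% of the summed FPKM in library 1 and 4.26% in library 2, with glutathione S transferase-1, ferritin and superoxide dismutase in front. Selenoprotein W is not on this list, and with it the share would be 7.43% and 6.84%. Members near the list median were picked out after their values were seen. Peroxiredoxin-1, a peroxide-reducing enzyme, stood at 35.1 and 27.0 FPKM, and catalase, which breaks down hydrogen peroxide, at 35.9 and 32.9 FPKM.

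Ribosomal proteins were the most uniformly high group. All 30 lay above the middle in both libraries, 27 of the 30 were in the top 10% of both, and the median percentile was 98.8 in each. They made up 17.1% of the summed member FPKM in library 1 and 16.8% in library 2. The highest was 60S ribosomal protein L32, at 1787 and 1659 FPKM. It was followed by L24, also of the large subunit, at 1624 and 1569 FPKM, and by S10 of the small subunit at 1435 and 1396 FPKM. The lowest was Ribosomal protein L40 at 26.0 and 27.2 FPKM, so the list was not at 1 level, and a second feature named 40S ribosomal protein SA stood at 29.7 and 26.2 FPKM beside a first at 764 and 716 FPKM.

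Among the translation factors, 8 of 23 were in the top 10% of both libraries and the median percentile was 83.1 and 83.5. Elongation factor 1-beta, which recharges the elongation factor that brings tRNA to the ribosome, stood at 632 and 606 FPKM. Elongation factor 1-alpha, the tRNA carrier itself, was split over several features, with eukaryotic translation elongation factor 1 alpha 2 at 605 and 541 FPKM and a fragment at 472 and 386 FPKM. Y box protein-1, an RNA-binding protein on no list, stood at 1658 FPKM in library 1 and 1381 FPKM in library 2.

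Chaperones made up 5.22% of the summed FPKM in library 1 and 6.20% in library 2. Of 36 features, 15 were in the top 10% of both libraries, with a median percentile of 83.9 and 85.7. Heat shock protein 40, the co-chaperone that hands substrates to heat shock protein 70, stood at 1067 and 971 FPKM. The small heat shock protein, of a family that holds unfolding proteins in solution, ranked 55 in library 1 and 13 in library 2. Heat shock protein 70 and the small heat shock protein were both higher in library 2, while heat shock protein 40 was lower, so the stress proteins did not differ between the libraries in 1 direction.

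Most transcripts of energy metabolism were high. The oxidative phosphorylation list had a median percentile of 89.4 and 88.8, with 11 of 22 features in the top 10% of both libraries, 20 above the middle in both and the lowest at percentile 24.1. The Rieske subunit of cytochrome b-c1, an electron carrier of the respiratory chain, stood at 178 and 164 FPKM. Cytochrome c oxidase subunit Vb stood at 176 and 163 FPKM and subunit IV at 166 and 168 FPKM. The glycolysis list had a median percentile of 81.3 and 80.5, with 4 of 16 features in the top 10% of both and 3 below the middle in both, down to percentile 8.54. Phosphoglycerate mutase, a late step of glycolysis, led it at 407 and 355 FPKM, ahead of fructose-bisphosphate aldolase at 160 and 155 FPKM and cytosolic malate dehydrogenase, a linked enzyme, at 128 and 120 FPKM.

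The proteasome and ubiquitin list had a median percentile of 63.7 and 62.9, with 7 of 66 features in the top 10% of both libraries, close to the share of all members. Ubiquitin conjugating enzyme E2 L3 stood far above the rest of it at 924 and 974 FPKM. The next were a proteasome alpha subunit at 193 and 186 FPKM and ubiquitin conjugating enzyme E2 N at 134 and 136 FPKM.

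Tubulin and actin are the subunits of microtubules and thin filaments. Their highest features were among the 50 highest members of both libraries. The highest Tubulin beta chain feature (TCONS_00000881) stood at 870 FPKM in library 1 and 684 FPKM in library 2, and the next (TCONS_00011021) at 568 and 523 FPKM. The highest alpha tubulin features, which pair with beta in microtubules, stood at 170 and 147 FPKM and at 169 and 137 FPKM. Of 18 tubulin features 4 were in the top 10% of both libraries, and 7 lay below the middle in both. Actin had 4 features, of which Actin (TCONS_00002306) stood at 553 and 505 FPKM, Actin-2 at 171 and 187 FPKM, a putative actin at 86.2 and 76.0 FPKM and actin-9 at 9.10 and 9.26 FPKM. Dynein light chain 2, a subunit of the microtubule motor of the cytoplasm, was rank 24 in both libraries at 906 and 907 FPKM. Tubulin and actin names cover near-identical gene copies, and the labels and file headers do not state how reads were shared among these.

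Extracellular matrix proteins were mostly low. None of the 14 matrix features was in the top 10% of both libraries, and 13 of them lay below the middle in both, with a median percentile of 21.8 and 24.1. The exception was SPARC-like protein, a collagen-binding matrix protein, at 42.4 and 39.2 FPKM. Collagen alpha 1V chain, whose feature of 5283 nt was the longest member, stood at 6.65 and 8.74 FPKM. The secretory and mucus list, with 7 features, had a median percentile of 49.4 and 53.6. In both libraries 3 features lay above the middle and 3 below it. Of those above, 2 were the intermediate filament features, which are named for a cytoskeletal protein. The list median therefore does not describe secreted and mucus proteins alone. These 2 features also carried nearly all of the list's 4.37% and 4.42% of the summed FPKM. Mucin-like protein, a gel-forming glycoprotein of mucus, was next at 36.4 and 31.7 FPKM. Lectin 2c held the list median, at percentiles 49.4 and 53.6. Lower still were Thionin at percentiles 18.7 and 13.3 and a second Mucin-like feature at 16.8 and 18.1. The lowest was von Willebrand factor A domain-containing protein 3A, at percentiles 1.37 and 2.1.

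The 5 tissue lists held 168 features between them, with 0 on more than 1 list. Their median percentiles, averaged over the libraries, were 59.9 for muscle, 54.4 for gut, 52.7 for cilia, 43.2 for stem cells and 15.4 for nerve. The values of muscle (59.8 and 60) lay above those of the other tissue lists in both libraries, and those of nerve (14.7 and 16) lay below. Gut (57.3 and 51.5) and cilia (51.4 and 54.0) overlapped, and they changed places between the libraries. Stem cells (45.9 and 40.5) lay below gut and cilia in both. With a span limit of 200 or 800 nt gut stood above muscle, at 57.7 against 56.96 and at 63.4 against 53.6, and at 800 nt cilia, at 56.9, did so too. With no matched name dropped nerve stood at 26.5.

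**Figure D3:**
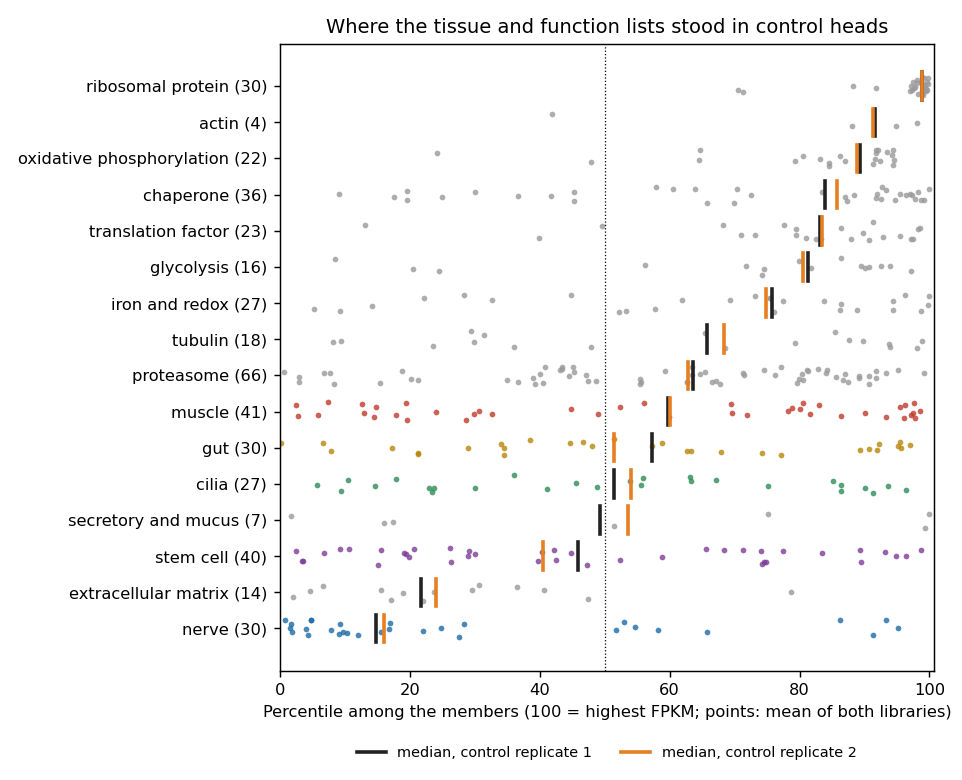
Percentile of each list member among all 2476 members, with 100 the highest FPKM, as the mean of both libraries (points), and the list median in control replicate 1 (black bar) and control replicate 2 (orange bar), with the number of features in brackets. Ribosomal proteins crowd at the right with medians of 98.8, while the nerve features crowd at the left with medians of 14.7 and 16.

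Muscle transcripts were the most abundant of the tissue lists, with 2.98% of the summed member FPKM in library 1 and 2.69% in library 2. Tropomyosin, which covers actin filaments and gates myosin binding, stood at 696 FPKM in library 1 and 578 FPKM in library 2. Myosin regulatory light chain 2, a switch of smooth muscle contraction, stood at 524 and 443 FPKM. Troponin I, the inhibitory subunit of the calcium switch on the thin filament, stood at 486 and 401 FPKM. Each of these was higher in library 1.

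The next muscle members showed the same order of the libraries. Myosin light chain protein stood at 458 and 372 FPKM, and calponin, an actin-binding protein of smooth muscle, at 407 and 343 FPKM. The highest titin feature, named for the giant elastic protein, stood at 263 and 225 FPKM, and transgelin, a calponin relative, at 253 and 212 FPKM. The eighth, the beta subunit of the capping protein of the muscle Z-line, was level between the libraries at 199 and 198 FPKM. Paramyosin, the core of thick filaments in invertebrate muscle, which was picked out after its value was seen, followed at 149 and 128 FPKM. Another muscle-type name among the 48 shared leaders, Tropomyosin II isoform 4, was missed by the search patterns and was picked out after its value was seen. It stood at 607 and 509 FPKM, again higher in library 1.

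The muscle features were widely spread, with quartiles at percentiles 19.6 and 86.3. Of 41 features, 9 were in the top 10% of both libraries and 17 lay below the middle in both. The low end was held by giant proteins broken over several features. Titin had 10 features, 8 of them on 1 contig, from 1.33 to 263 FPKM in library 1 and from 1.36 to 225 FPKM in library 2. Filamin, an actin cross-linker, had 5 features from 1.5 to 13.3 FPKM and from 1.05 to 16.7 FPKM. When features of the same name were summed, the median percentile of muscle was 84.1 in place of 59.9. The muscle feature with the largest difference between the libraries, among those with a mean of at least 5 FPKM, was a myosin heavy chain piece (TCONS_00011892) at 32.1 and 51.0 FPKM, and it was higher in library 2, unlike the light chains.

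**Figure D4:**
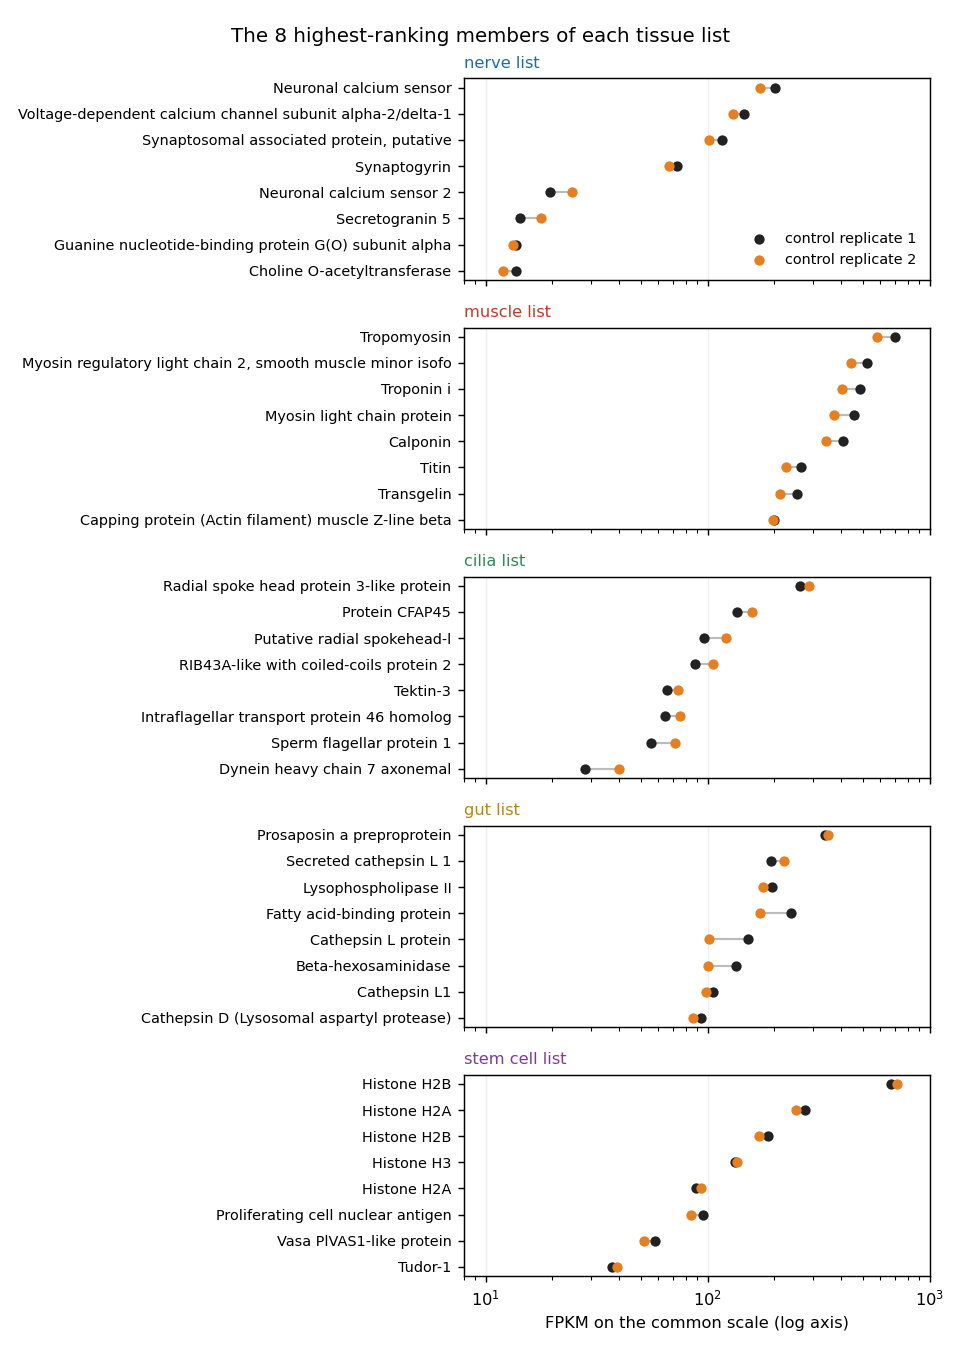
The 8 highest-ranking members of each tissue list, with the FPKM of control replicate 1 in black and of control replicate 2 in orange on a log axis. All 8 muscle members and the first 6 stem cell members lie above 80 FPKM, while only the first 4 nerve members lie above 60 FPKM; all 8 cilia members are higher in control replicate 2.

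The leading gut transcripts included several lysosomal proteins. Prosaposin, the precursor of proteins that present lipids to lysosomal enzymes, stood at 337 and 348 FPKM in its higher feature. A second feature of that name on the same contig stood at 13.9 and 11.7 FPKM. Secreted cathepsin L 1, a cysteine protease, stood at 193 and 221 FPKM, and a further cathepsin L feature (TCONS_00010615) at 151.5 and 101.8 FPKM. Lysophospholipase II, which cleaves lysophospholipids and is not lysosomal by its name, stood at 196 and 177 FPKM. Lysosomal enzymes are made in every cell type, so the lysosomal names mark the gut only by their known abundance there.

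Several gut features were lower in library 2. Fatty acid-binding protein, a carrier of lipids in the cell, stood at 237 FPKM in library 1 and 171 FPKM in library 2. Beta-hexosaminidase, a lysosomal sugar-cleaving enzyme, stood at 134 and 100.9 FPKM in its higher feature. A second beta-hexosaminidase feature on the same contig stood at 17.9 and 14.0 FPKM. Cathepsin L1 was closer between the libraries at 106 and 97.9 FPKM, as was the aspartic protease cathepsin D at 93.6 and 85.5 FPKM. The gut feature with the largest difference was Cathepsin L cysteine proteinase (TCONS_00005617), at 29.5 FPKM in library 1 from 269 fragments and 10.47 FPKM in library 2 from 147 fragments. Of 30 gut features, 7 were in the top 10% of both libraries and 13 lay below the middle in both.

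Cilia transcripts were led by structural parts of the axoneme. Radial spoke head protein 3, a part of the spokes that link the outer microtubules to the central pair, stood at 260 FPKM in library 1 and 287 FPKM in library 2. CFAP45, a protein inside axonemal microtubules, stood at 135 and 159 FPKM. A second radial spoke protein (Putative radial spokehead-l) stood at 96.2 and 121 FPKM. In each of these library 2 was higher.

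The rest of the leading cilia features followed suit. RIB43A-like protein 2, a filament of the microtubule wall, stood at 88.1 and 106 FPKM, and Tektin-3, of the same location, at 65.9 and 73.7 FPKM. Intraflagellar transport protein 46, part of the carrier train along the cilium, stood at 64.0 and 74.8 FPKM, and Sperm flagellar protein 1 at 55.6 and 71.5 FPKM. Dynein heavy chain 7, a motor of the inner arms, stood at 28.2 and 39.8 FPKM. The largest difference was in Sperm-associated antigen 17, a central-pair protein, at 14.2 and 28 FPKM. The top 10% of both libraries held 2 of 27 cilia features, or 7.41%, near the 9.65% of all members, and the list made up 0.697% of the summed FPKM in library 1 and 0.859% in library 2.

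Stem cell transcripts were led by core histones. Histone H2B stood at 669 and 710 FPKM in its highest feature (TCONS_00005635), followed by Histone H2A (TCONS_00000567) at 276 and 249 FPKM. A second H2B feature stood at 188 and 170 FPKM, Histone H3 at 133 and 136 FPKM and a second H2A feature (TCONS_00003130) at 88.5 and 93.0 FPKM. Histones are made mainly in dividing cells, but variants are also made in resting cells, and the names do not tell these apart. The RNA was also selected by poly(A) tail, so histone transcripts without such a tail would be undercounted. The histone values are therefore no measure of the number of dividing cells. Proliferating cell nuclear antigen, the clamp that holds DNA polymerase on its template, stood at 95.5 and 83.8 FPKM, and a second feature of that name at 1.04 and 1.88 FPKM. Of 40 stem cell features, 4 were in the top 10% of both libraries and 23 lay below the middle in both.

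The germ-line type RNA-binding proteins of neoblasts spread over a wide range. Vasa PlVAS1-like protein, a DEAD-box RNA helicase, stood at 58.1 and 51.5 FPKM, and VASA 2 at 36.2 and 30.9 FPKM. Tudor-1, of a family that binds methylated piwi proteins in other animals, stood at 37.2 and 39.3 FPKM in its highest feature. The third vasa-type name, DjVLGB, was lower at 4.95 and 5.76 FPKM, near the nanos-related protein, a translational repressor, at 5.18 and 5.42 FPKM. The only piwi-named member, Piwi-like protein with a feature of 499 nt, stood at 1.80 FPKM from 12 fragments in library 1 and 1.07 FPKM from 11 fragments in library 2, among the lowest members. The stem cell feature with the largest difference was DNA polymerase eta, a repair polymerase, at 7.20 and 10.2 FPKM.

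Nerve transcripts stood lowest of the tissue lists, with 0.486% of the summed FPKM in library 1 and 0.466% in library 2. With the 23 features added that the nerve patterns had missed, the share was 1.15% in each, and the cilia share with its own missed names was 1.42% and 1.78%. Only 4 of 30 features were above 60 FPKM. Neuronal calcium sensor, a calcium-binding regulator of transmitter release, stood at 201 and 173 FPKM. Voltage-dependent calcium channel subunit alpha-2/delta-1, which brings calcium channels to the cell surface, stood at 146 and 131 FPKM in its higher feature. A second feature of that name on the same contig stood at 0 and 1.22 FPKM. The synaptosomal associated protein, a part of the machinery that fuses vesicles with the membrane, stood at 116 and 102 FPKM, and synaptogyrin, a synaptic vesicle membrane protein, at 72.5 and 67.1 FPKM.

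The next features of the nerve list were lower. Neuronal calcium sensor 2 stood at 19.5 and 24.4 FPKM, Secretogranin 5, a chaperone of the enzyme that cuts prohormones, at 14.3 and 17.7 FPKM, and the G(O) alpha subunit, a signalling protein abundant in nerve cells, at 13.7 and 13.3 FPKM. Another G alpha o feature (TCONS_00007629), which the patterns missed and which was picked out after its value was seen, stood at 39.3 and 35.9 FPKM. Choline O-acetyltransferase, which makes acetylcholine, stood at 13.8 and 12 FPKM, close to the median of all members. The largest difference was in a second synaptogyrin feature (TCONS_00001147), at 18.2 FPKM from 86 fragments and 11.5 FPKM from 84 fragments. Of the 30 features, 21 lay below the middle in both libraries, including synaptotagmin, the calcium sensor of vesicle fusion, at 2.68 and 4.69 FPKM and at 1.96 and 1.51 FPKM in its 2 features, and acetylcholinesterase, which breaks down acetylcholine, at 0.784 and 1.24 FPKM and at 0.48 and 2.51 FPKM in its 2 features.

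Several defining names of eye and nerve cells gave low values or no member. Beta arrestin 1, of the family that quenches receptors such as opsins, stood at 1.21 and 2.09 FPKM, from 6 and 16 fragments. No member was named for an opsin, tyrosinase, complexin or prohormone convertase. The members leave out 1934 named features under 400 nt and 4236 features of 400 nt or more without a usable name. A name with no member therefore does not show that its transcript was absent from the heads. A Rhodopsin orphan GPCR, which the name does not make a light receptor, stood at 1.63 and 4.24 FPKM. Extended synaptotagmin 2 and Synaptotagmin-like protein 5, which are not vesicle sensors and were left off the nerve list, stood at 5.11 and 7.85 FPKM and at 12.9 and 12.3 FPKM. Aromatic amino acid decarboxylase (TCONS_00002080), whose name belongs to the last step of dopamine and serotonin synthesis, was not matched by the nerve patterns and stood at 724 and 708 FPKM, while a feature named Aromatic-L-amino-acid decarboxylase that was matched stood at 4.96 and 6.17 FPKM. The former was picked out after its value was seen. It lies above every feature of the nerve list.

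Among the tissue lists, the libraries differed most evenly in cilia. Among features that averaged 1 FPKM or more and held at least 100 fragments over both libraries, 24 of 25 cilia features were higher in library 2, with a median difference of 0.27 in log2(FPKM + 1). Over all 2053 members at this depth, 46.3% were higher in library 2, with a median of -0.02. The other tissue lists were spread around or below that median, with 14 of 35 muscle, 5 of 15 nerve, 8 of 25 gut and 11 of 31 stem cell features higher in library 2. Their medians were -0.05, -0.11, -0.15 and -0.13. These 4 lists held several features of each direction, while 1 of the 25 cilia features was higher in library 1. Function lists also leaned to 1 side at this depth, with 26 of 30 ribosomal protein and 20 of 24 iron and redox features higher in library 1. Some cilia features shared a contig and may be pieces of 1 transcript. Of the 27 cilia features 0 passed the 2-fold mark, with the highest difference in Sperm-associated antigen 17 at 0.94.

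**Figure D5:**
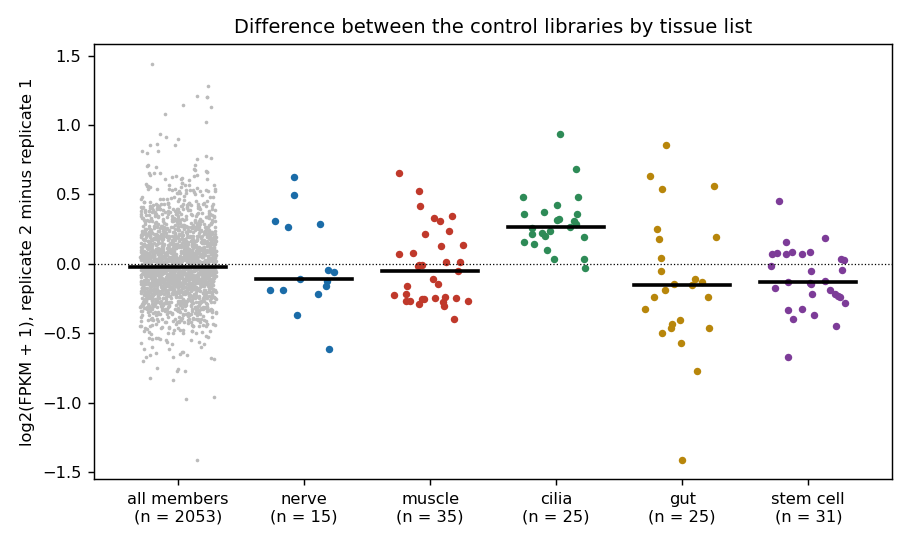
Difference in log2(FPKM + 1) between control replicate 2 and control replicate 1 for all 2053 members with at least 100 fragments and for the tissue lists among them, with the median as a black bar. Of the 25 cilia features 24 lie above 0, with a median of 0.27, while the medians of the other tissue lists lie between -0.15 and -0.05.

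The leading members were also set beside all members in length and annotation. Whether either shaped their rank was not tested. The 48 shared leaders had a median span of 593.5 nt, against 801 nt over all members, and 36 of them, or 75%, spanned under 800 nt. The wider group of 239 members in the top 10% of both libraries had a median span of 760 nt. Median levels were 7.86 and 8.57 FPKM for spans of 400 to 599 nt, 15 and 15.2 FPKM for 1000 to 1999 nt, and 14.5 and 15.3 FPKM for 2000 nt or more. The share in the top 10% of both libraries was 10.9%, 9.66% and 4.86% in these classes. Among the 109 members of the top 10% with a deposited cellular component term, 18 carried "ribosome" and 15 "integral component of membrane", or 16.5% and 13.8%. Over all 1070 members with a term these made up 2.80% and 34.8%. The membrane term was therefore rarer among the leaders with a term than over all members with a term.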

How the data were processed

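RNA sequencing values of the 2 control libraries were used. The authors computed FPKM for each transcript feature, per the file headers, and deposited 1 table per replicate, scaled separately, and 1 with the replicates pooled. The submitters' processing notes name TopHat2 2.0.13, Cufflinks 2.2.1, Bowtie, TopHat and Cuffdiff but not what each did. The genome build is not stated, and loci are contigs. The pooled control value was a weighted sum of the replicate values (weights 0.640 and 0.357), within 0.1% in 15352 of 15353 features, and multiplying each library by 2 times its weight put both libraries on 1 scale.

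Fragments were recovered from FPKM by assuming fragments of 28 to 440 nt with a mean of 200 nt and an SD of 80 nt, which made 99.7% and 99.8% of low values whole within 0.1 fragments. Ranks and percentiles were taken within each library over the 2476 members with both values (Python 3.11.15, pandas 2.3.3). The 5 tissue and 11 function lists were matched on protein names, and 52 matched features were dropped because the name is plainly another protein. The members and lists were chosen with earlier results of these data known. Features named were the 30 with the best rank in their lower-ranking library, the best 8 of each tissue list and 3 of each function list, the tissue feature with the largest difference between libraries among those with a mean of at least 5 FPKM, and defining names of neoblasts, eyes and nerve cells; every other name, such as the lowest of a list, was picked out after its value was seen. Features sharing a contig (432 members) may be pieces of 1 transcript. There was no test. Recovery of depth and scale was checked on simulated data built with the same fragment length model, so this check cannot show that the model holds. In the simulated data, features raised in level also moved up in percentile. Alternatives changed the span limit, the filter on low values, the scale, the pseudocount, the name matching and the library used.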

Additional observations from a re-analysis of the deposited data

How the results depend on the processing

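Of the 50 highest members, the number shared, 48, was 47 to 49 under the alternatives run. The order of the tissue lists depended on the setting, except that stem cells came next to last and nerve last under each of those run. The median percentile of nerve, 15.4, was 22.9 with a span limit of 200 nt, 21.4 with 800 nt, 16.8 with members averaging 1 FPKM or more, 19.1 with same-name features summed, 16.4 with FPKM times span, 18.9 with missed names added and 26.5 with no name dropped. Muscle, 59.9, was 56.96, 53.6, 59.4, 84.1, 62.6, 66.6 and 66.6 under the same settings in that order. Cilia, 52.7, was 56.9 with 800 nt, 62.4 with names summed, 49.4 with FPKM times span and 48.1 with missed names added. Gut, 54.4, was 63.4 with 800 nt and 47.5 with no name dropped, and stem cells, 43.2, were 36.0 with 800 nt and 48.9 with names summed. Leaving out 1 library gave 14.7 to 16 for nerve, 59.8 to 60 for muscle, 51.4 to 54.0 for cilia, 51.5 to 57.3 for gut and 40.5 to 45.9 for stem cells.

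The 40 members over 2-fold apart became 92 with a pseudocount of 0.1, 4 with a pseudocount of 5, 8 with members averaging 5 FPKM or more, 448 with FPKM as deposited, 276 with a span limit of 200 nt, 4 with 800 nt and 10 with at least 100 fragments. With missed names added, the share of summed FPKM was 1.15% for nerve in place of 0.476%, 1.60% for cilia in place of 0.778% and 2.26% for stem cells in place of 1.409%. The missed names, the undropped names and the limit of 100 fragments were chosen after seeing the data. Leaving out a library gives no value for either count, since each compares both. No paired analysis was possible because a single group was used.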

Other observations

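Neuropeptide precursors, which nerve cells cut into signalling peptides, lay outside the members because each of the 24 features so named spanned 56 to 387 nt. Neuropeptide-18, on a feature of 88 nt, stood at 732 FPKM from 27 fragments in library 1 and 776 FPKM from 44 fragments in library 2. Secreted peptide prohormone 18 stood at 360 and 396 FPKM from 26 and 44 fragments, and Myomodulin prohormone like-2, named for a peptide that modulates muscle, at 312 and 303 FPKM from 81 and 121 fragments. Neuropeptide-17, on the longest of these features, stood at 64.3 and 96.2 FPKM from 267 and 615 fragments. Of the 24, 14 held at least 10 fragments in both libraries and 4 were at 0 in library 1, so short features gave large FPKM values from few fragments.

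The following names, known from body patterning, were picked out after their values were seen and stand for no list. Nou darake like-5, of the family named for an FGF receptor-like gene that keeps brain tissue to the head, stood at 11.9 and 12.9 FPKM, and Nou-darake like-2 at 0.89 FPKM from 5 fragments and 2.90 FPKM from 25. Noggin-like protein 5, of a family that binds BMP ligands, stood at 12.2 and 14.6 FPKM. Six3, a transcription factor of the anterior brain in other animals, stood at 0.69 and 1.66 FPKM from 7 and 26 fragments. Of the Frizzled receptors of Wnt ligands, Fzd-1/2/7 stood at 23.9 and 36.4 FPKM, and Fzd-5/8-3 at 4.81 and 8.04 FPKM in its higher feature.

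The next names were also picked out after their values were seen. A further cilia name missed by the patterns, Protein Flattop, a microtubule-binding protein of cilia, stood at 193 and 258 FPKM. The patterns missed 30 cilia features in all, and the direction of the rest is not given here. Metalloendopeptidase (TCONS_00002799), a secreted-type protease name on no list, stood at 607 FPKM in library 1 and 355 FPKM in library 2, at ranks 43 and 72.

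The unnamed features of 400 nt or more, 4212 with both values, made up 63.1% of the summed FPKM of all features of that length in library 1 and 61.4% in library 2. Of the 45 features of that length among the 50 highest of both libraries, 31 had no usable name. The highest (TCONS_00001860) stood at 17509 and 14114 FPKM, above every member. An uncharacterized feature of 1000 nt (TCONS_00006626) stood at 8503 FPKM from 152085 fragments in library 1 and 1458 FPKM from 40119 fragments in library 2.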
